A study of Mus musculus with 3 samples.

Results

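Oocytes of mice exposed to a high dose of PCB118 were compared with oocytes of unexposed mice, gene by gene and by functional class. The comparison used 2 of the 3 RNA sequencing libraries of the study, 1 for the high dose and 1 for the control, and the remaining library, of a low dose, is given beside the named genes. Oocytes for all 3 came from female mice of the outbred strain ICR, aged 8 weeks, and their labels differed in exposure alone, given as none, low or high. The labels give no amounts. PCB118 is 2,3',4,4',5-pentachlorobiphenyl, and according to the series title exposure took place in pregnancy and the question was how the offspring's oocytes mature. How many animals or oocytes entered a library, whether they were pooled and at which meiotic stage they were collected were not given in the sources used here. Genes were kept when the mean of both libraries was at least 5 FPKM (fragments per kilobase, relative to library size), which left 6099 of 23376 named genes. Higher and lower mean a log2((high + 1)/(control + 1)) of at least 1 in size, a 2-fold rule of size and not a test. With 1 library per group there was no replicate check, no p-value is given, and the values describe these libraries, not the exposure.

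PCB118 belongs to the dioxin-like polychlorinated biphenyls, which bind the aryl hydrocarbon receptor. The bound receptor enters the nucleus, pairs with Arnt and switches on enzymes of foreign-compound metabolism of the Cyp1 family. Oocytes make little new RNA once they are fully grown. They rely on stored messenger RNAs that are held silent, translated or degraded in turn during meiotic maturation, so their RNA levels reflect both earlier synthesis and later decay. In these bulk libraries, fewer cells of a kind and less RNA per cell cannot be told apart.

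The oocyte label was checked against markers first, and values are given in the order control, low dose and high dose from here on. Most oocyte markers were high in all libraries, among them the maternal factor Dppa3 at 4707, 4174 and 5342 FPKM, the zona pellucida gene Zp2 at 320.3, 379.6 and 353 FPKM and Ooep of the subcortical maternal complex at 858, 639 and 662 FPKM. Mos, which keeps eggs in metaphase II arrest, was at 9.36, 178 and 8.57 FPKM, low in control and at the high dose. Markers of granulosa cells, the follicle cells around the oocyte, summed to 42.4, 50.2 and 39.7 FPKM over the 20 of 26 that had a row, and 16 of the 20 in control and 14 at the high dose were below 1 FPKM. Amh and Foxl2 had no row under those names among the rows used here, and the sum came mainly from Serpine2, Nr5a2 and Fshr. The theca and stroma list summed to 9.58, 13.9 and 6.97 FPKM, the endothelial list to 6.39, 11.3 and 7.33 FPKM, the immune list to 27.0, 13.3 and 13.7 FPKM, the red blood cell list to 0.0698, 0.0440 and 0.192 FPKM and the epithelial list to 16.9, 23.3 and 25.8 FPKM. Within the immune list C1qb, a complement component, made up most of the sum at 23.9, 8.79 and 10.8 FPKM, and Ptprc, the pan-leukocyte marker, had no row among those used here. The epithelial sum was mainly Cdh1 at 12.5, 20.4 and 20.7 FPKM, the cadherin that oocytes also carry.

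Depth was estimated from the lowest values in the tables, since no counts were used here. The estimates were about 34700000, 27900000 and 31500000 reads for control, low and high dose, and 1 read over 1 kb was worth 0.0288, 0.0359 and 0.0318 FPKM. At least 5 FPKM was reached by 5822, 6515 and 6193 named genes.

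Most transcripts lay close together in the control and high dose libraries. Of 6099 kept genes 5152, or 84.5%, were less than 2-fold apart and 2818, or 46.2%, less than 1.25-fold apart. At least 2-fold higher at the high dose were 617 genes (10.1%) and at least 2-fold lower 330 genes (5.41%), so 15.5% passed the rule in either direction. The median log2 ratio was 0.03, and the middle 90% of genes ran from -1.07 to 1.56. A 4-fold difference was reached by 201 genes on the higher and 120 on the lower side, and an 8-fold difference by 99 and 58. The values just inside and just outside the rule were numerous, with 41 genes between 1 and 1.05 and 45 between 0.95 and 1 on the log2 scale. On the lower side 15 genes lay between -1.05 and -1 and 42 between -1 and -0.95. The filter on the mean bears on these counts, as 551 kept genes were below 5 FPKM in control, 286 of them higher, and 339 were below 5 FPKM at the high dose, 171 of them lower.

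**Figure D1:**
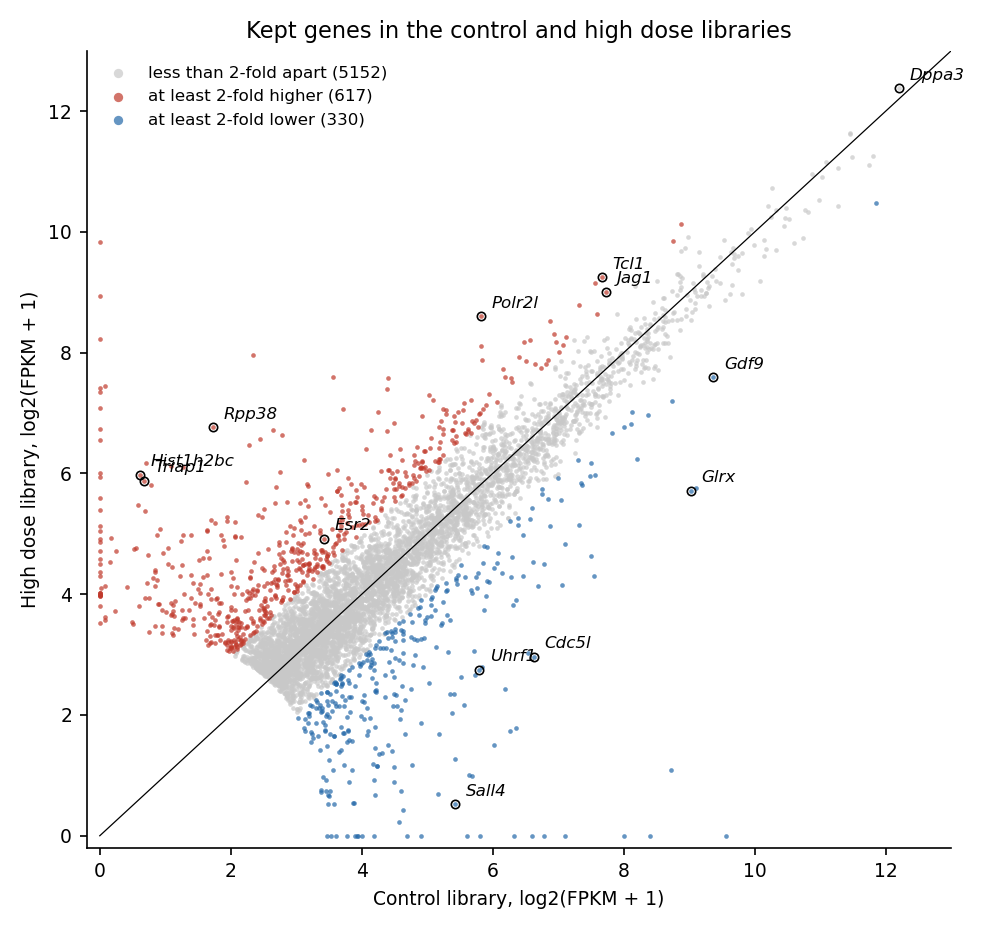
Expression of the 6099 kept genes in the control (horizontal axis) and high dose library (vertical axis), as log2(FPKM + 1), 1 point per gene. Red points are the 617 genes at least 2-fold higher, blue points the 330 at least 2-fold lower, the line marks equal values, and circled points are genes named in the text. The most abundant gene, Dppa3, lies near the line, and points on either axis are genes at 0 in one library, either listed at 0 or without a row in its table.

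The excess on the higher side moved with how a gene was represented in the tables. The authors' assembler split many genes over several rows, which were summed. Among the 3861 genes with 1 row, 228 were higher (5.91%) and 216 lower (5.59%), nearly the same count in each direction. Among the 1374 genes with 2 rows 17.0% were higher and 5.09% lower, and among the 864 with 3 or more rows 17.9% and 5.09%. Transcript length moved with it, since of 5 groups by length the longest (median 6332 bases) had 14.9% higher and 4.06% lower, and the next to shortest (median 1697 bases) 6.78% and 7.29%. Median log2 ratios ran from -0.14 in the latter group to 0.23 in the longest. For 67 of the higher genes (10.9%) the largest row was at 0 in control, and for 39 of the lower genes (11.8%) it was at 0 at the high dose. The part of row splitting and length in the class results was not tested, and for many of the classes below the genes of 1 row are counted separately. Class counts below stand beside 10.1% higher and 5.41% lower among all kept genes.

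**Figure D2:**
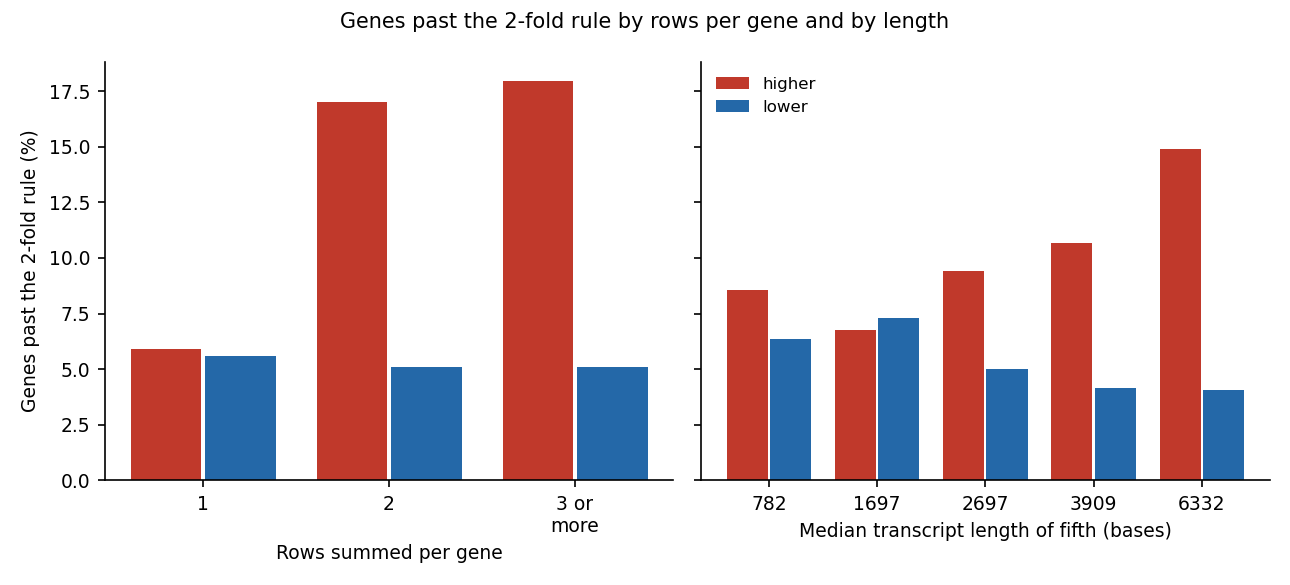
Share of kept genes that passed the 2-fold rule (vertical axis, percent), by the number of rows summed per gene (left) and by 5 equal groups of transcript length, labelled with the median length in bases (right). Red bars are genes higher and blue bars genes lower at the high dose. Higher genes made up 5.91% of genes with 1 row and 17.9% of genes with 3 or more rows.

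Components of the aryl hydrocarbon receptor pathway were examined first, as the known entry point of dioxin-like compounds. The list used also held genes of foreign-compound metabolism. None of its 11 kept members was higher, against 10.1% of all genes, and 2 were lower (18.2%, against 5.41% of all genes). Below the median of all genes lay 9, with a class median log2 ratio of -0.34 against 0.03 for all genes. Among the lower members was Relb, an NF-kappaB subunit that also pairs with the receptor, at 20.1, 21.3 and 1.85 FPKM (log2 ratio -2.88). Relb was high in the control and low dose libraries and low at the high dose. Of the Hsp90 chaperones that hold the receptor in a form able to bind ligand, Hsp90aa1 was at 801, 829 and 554 FPKM (log2 ratio -0.53), the lowest value being that of the high dose, and Hsp90ab1 at 55.9, 56.1 and 44.0 FPKM (log2 ratio -0.34).

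The receptor and its classical targets were too low to be kept or lay within the rule. Ahr, the receptor itself, was at 2.21, 3.86 and 5.85 FPKM, and its partner Arnt at 0.745, 0.479 and 3.02 FPKM, both highest at the high dose but below the filter. Arnt2, the second partner gene, was kept at 32.7, 21.7 and 20.04 FPKM (log2 ratio -0.68). Ahrr, a repressor that the receptor induces, was at 0.0699, 0.00770 and 0 FPKM and Cyp1b1, a target enzyme, at 0.0833, 0.109 and 0.381 FPKM. The high dose value of Cyp1b1 was the largest of its 3 values, and all were far below 1 FPKM. Tiparp, a target that ADP-ribosylates the receptor, was abundant at 114, 113 and 122 FPKM (log2 ratio 0.10), and the 3 libraries were level. Nqo1, a quinone reductase induced through the receptor and Nrf2, was at 4.88, 0.822 and 3.905 FPKM, lowest at the low dose, and its control and high dose values were closer together than either was to the low dose.

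Upstream sequences of 5 genes are shown, 2 known targets of the receptor (Cyp1b1, Tiparp) and 3 genes with large ratios described below (Esr2, Triap1, Uhrf1). Each is the 250 bases before the RefSeq start on GRCm38.p6, written 5′ to 3′ on the gene's strand. Capitals mark GCGTG, the core of the element that the receptor binds, or CACGC, the same core on the other strand. Both strands were searched, and overlapping matches of both forms were counted separately.
The windows are chr17:79715062-79715311 on the minus strand for Cyp1b1, chr3:65528197-65528446 on the plus strand for Tiparp, chr12:76177260-76177509 on the minus strand for Esr2, chr5:115340981-115341230 on the plus strand for Triap1 and chr17:56303087-56303336 on the plus strand for Uhrf1.
Cyp1b1: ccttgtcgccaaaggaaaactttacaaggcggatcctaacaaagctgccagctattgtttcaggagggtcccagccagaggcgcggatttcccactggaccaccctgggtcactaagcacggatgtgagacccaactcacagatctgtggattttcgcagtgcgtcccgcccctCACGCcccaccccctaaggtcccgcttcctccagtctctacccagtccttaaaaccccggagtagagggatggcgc
Tiparp: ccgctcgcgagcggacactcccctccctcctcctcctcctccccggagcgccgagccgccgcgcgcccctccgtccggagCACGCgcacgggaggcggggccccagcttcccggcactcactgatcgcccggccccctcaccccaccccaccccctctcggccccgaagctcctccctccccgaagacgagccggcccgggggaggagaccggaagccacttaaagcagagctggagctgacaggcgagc
Esr2: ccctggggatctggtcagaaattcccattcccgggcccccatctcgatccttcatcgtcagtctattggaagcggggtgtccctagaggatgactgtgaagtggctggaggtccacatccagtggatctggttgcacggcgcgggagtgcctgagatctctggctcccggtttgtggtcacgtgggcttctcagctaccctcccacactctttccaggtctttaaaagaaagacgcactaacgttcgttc
Triap1: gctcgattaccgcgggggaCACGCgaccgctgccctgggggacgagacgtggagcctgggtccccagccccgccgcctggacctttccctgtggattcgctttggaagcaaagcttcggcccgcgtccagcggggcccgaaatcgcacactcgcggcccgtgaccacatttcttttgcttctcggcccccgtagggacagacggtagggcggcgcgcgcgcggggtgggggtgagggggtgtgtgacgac
Uhrf1: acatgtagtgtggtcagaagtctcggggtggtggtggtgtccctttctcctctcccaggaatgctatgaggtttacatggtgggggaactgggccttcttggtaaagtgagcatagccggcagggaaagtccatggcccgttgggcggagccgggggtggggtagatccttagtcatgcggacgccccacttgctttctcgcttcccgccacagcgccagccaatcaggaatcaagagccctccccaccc
The windows of Cyp1b1, Tiparp and Triap1 each held 1 match and those of Esr2 and Uhrf1 0. The core was present in 28.2% of all 27025 promoters in the RefSeq table and in 44.4% of the 4243 kept genes that matched the table by symbol. It was found in 191 of 410 higher genes with a promoter (46.6%), in 99 of 221 lower genes (44.8%) and in 44.2% of genes within 2-fold. A match is a description of letters and not a binding site.

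Nuclear receptors and their coregulators, which carry hormone signals to genes, held several higher members. Of 15 kept members 4 were higher (26.7%, against 10.1% of all genes) and 0 lower, with a median log2 ratio of 0.37, against 0.20 for genes of like length. Of the 7 with 1 row 2 were higher. Esr2, oestrogen receptor beta and the form found in growing follicles, stood at 9.76, 7.09 and 29.3 FPKM (log2 ratio 1.49), high at the high dose alone. Ncoa4, a coactivator that also delivers ferritin to autophagy, was at 4.58, 3.81 and 20.6 FPKM (log2 ratio 1.96), again high in the high dose library alone. Ncoa1, the steroid receptor coactivator SRC-1, was at 7.19, 16.03 and 27.9 FPKM (log2 ratio 1.82), and Nr6a1, the germ cell nuclear factor, at 3.17, 18.2 and 8.27 FPKM (log2 ratio 1.15), spread over 3 and 7 rows. With rows listed in both tables only, Nr6a1 was at 0.77 on the log2 scale, inside the rule. The orphan receptor Esrrg was the most abundant member at 87.0, 95.8 and 126 FPKM (log2 ratio 0.53), and Nr3c1, the glucocorticoid receptor, was at 5.78, 7.59 and 7.76 FPKM (log2 ratio 0.37); both were within the rule. Esr1, oestrogen receptor alpha, stayed below the filter at 2.16, 1.82 and 1.64 FPKM.

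Among genes with 1 row that were above 0 in both libraries, the 15 largest ratios in each direction were compared. Hist1h2bc, a core histone H2B gene (GRCm38 chromosome 13, plus strand, from 23684199 to 23692908), was at 0.535, 0.958 and 62.2 FPKM (log2 ratio 5.36). Rpp38, a protein of RNase P, the enzyme that trims transfer RNA precursors (chromosome 2, 3328949 to 3332643, minus strand), was at 2.33, 2.13 and 108 FPKM (log2 ratio 5.03). Both were low in control and at the low dose and high at the high dose alone. Triap1, a mitochondrial lipid carrier that inhibits apoptosis (chromosome 5, 115341225 to 115343569, plus strand), was at 0.598, 32.8 and 57.9 FPKM (log2 ratio 5.20), high in both exposed libraries. The same was seen for Coq8b, a kinase-like protein of coenzyme Q synthesis, at 5.73, 72.2 and 64.4 FPKM (log2 ratio 3.28). Selenot, a selenoprotein of the endoplasmic reticulum, was at 2.12, 1.13 and 25.4 FPKM (log2 ratio 3.08) and Txndc5, a protein disulfide isomerase, at 1.05, 4.81 and 21.5 FPKM (log2 ratio 3.46). Receptors known from immune cells also appeared, namely Cnr2, the cannabinoid receptor of immune cells, at 0.331, 6.68 and 16.4 FPKM (log2 ratio 3.71) and the chemokine receptor Ccr8 at 0.425, 3.01 and 10.3 FPKM (log2 ratio 2.99).

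On the lower side Sall4, a zinc finger transcription factor of germ cells (chromosome 2, 168748332 to 168767943, minus strand), was at 42.0, 54.6 and 0.435 FPKM (log2 ratio -4.91). Bola1, a mitochondrial protein of iron-sulfur cluster assembly, was at 63.6, 69.3 and 1.84 FPKM (log2 ratio -4.51), and Rrn3, the initiation factor that recruits RNA polymerase I to ribosomal RNA genes, at 26.2, 31.4 and 1.26 FPKM (log2 ratio -3.59). In these 3 genes control and low dose were alike and the high dose alone was low. Tuba1c, an alpha tubulin, was at 48.8, 4.83 and 1.001 FPKM (log2 ratio -4.64), and Rpp25l, a protein related to RNase P subunits, at 71.5, 10.4 and 4.42 FPKM (log2 ratio -3.74). Cdc5l, a core splicing factor, was at 97.9, 3.51 and 6.81 FPKM (log2 ratio -3.66), and in these 3 genes both exposed libraries were low. Phf13, a reader of methylated histone H3, was at 13.8, 33.6 and 0.463 FPKM (log2 ratio -3.34) and was highest at the low dose and lowest at the high dose. Histones, tubulins, actins, ribosomal proteins and cyclophilins have close paralogs or processed copies between which reads can be divided, so values of single members of these families are uncertain.

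**Figure D3:**
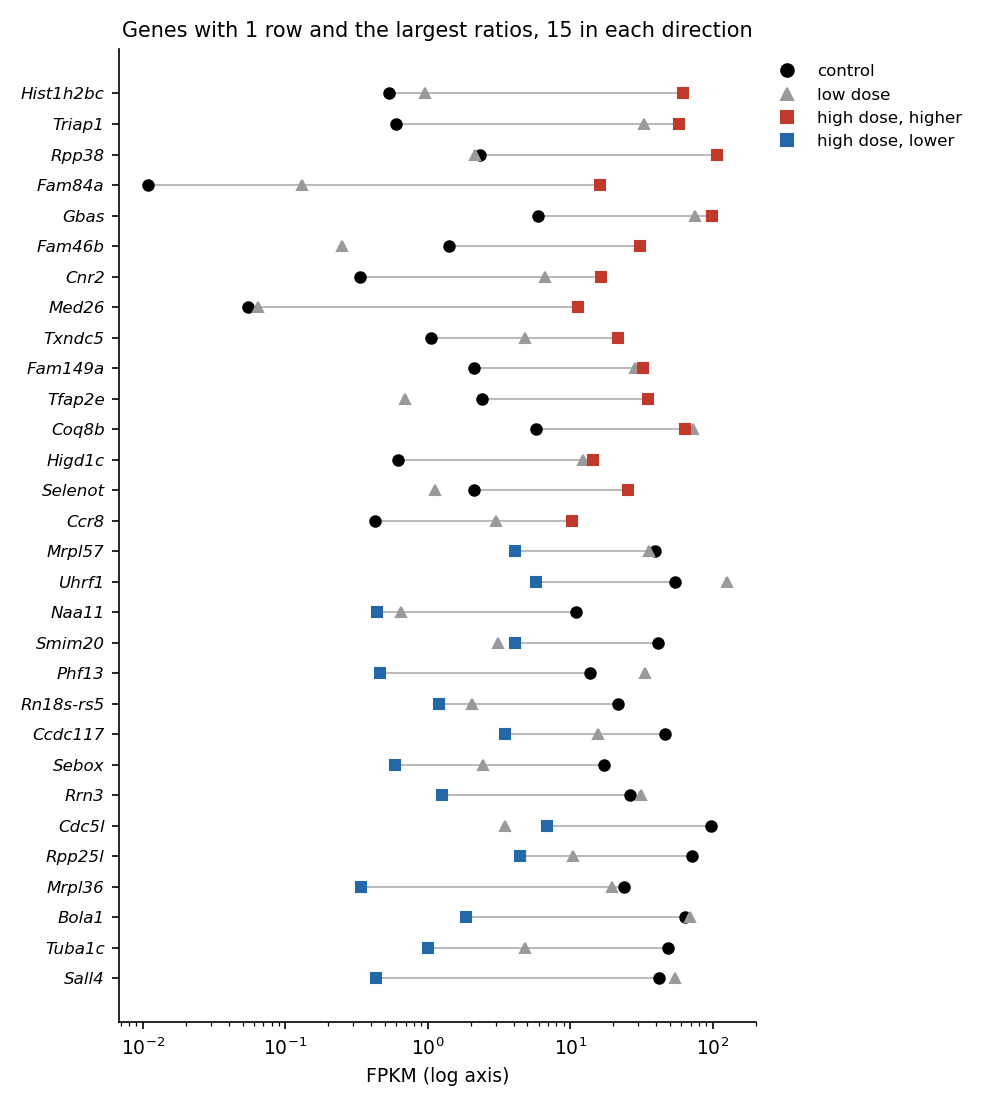
FPKM (horizontal log axis) in the control (black circle), low dose (grey triangle) and high dose library (square) of 15 genes with the highest and 15 with the lowest log2 ratios among kept genes with 1 row above 0 in both libraries. A grey line joins control and high dose. For Hist1h2bc and Rpp38 the low dose lies beside control, and for Triap1 and Coq8b beside the high dose.

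None of the 20 most abundant genes with a curated symbol passed the rule. E330017A01Rik, a gene without a curated symbol whose level was among theirs and which was added after its values were seen, was lower at 3681, 1239.6 and 1429 FPKM (log2 ratio -1.36) over 2 rows. After Dppa3, Ldhb, the lactate dehydrogenase subunit of oocytes, was at 3580.0, 2298 and 2434 FPKM (log2 ratio -0.56), and Cks2, the small partner of cyclin-dependent kinases that oocytes need for anaphase, at 2798, 2728 and 3173 FPKM (log2 ratio 0.18). The oocyte linker histone H1foo was at 2477, 1105 and 1369.9 FPKM (log2 ratio -0.85) and the polyubiquitin gene Ubb at 1708, 727 and 952 FPKM (log2 ratio -0.84), the largest differences among these 20, both with lower values in the exposed libraries.

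Genes that oocytes secrete or carry on their surface lay mostly below the median of all genes. Of 14 kept members of the secreted, zona pellucida and gamete fusion list, 10 lay below it, with 1 higher and 2 lower members (0 and 1 of the 10 with 1 row) and a median log2 ratio of -0.39 (-0.11 for genes of like length). Gdf9, a growth factor through which the oocyte directs granulosa cells, was at 661, 38.5 and 193 FPKM (log2 ratio -1.77). Its partner Bmp15 was at 4.27, 18.7 and 15.8 FPKM (log2 ratio 1.67), but the larger of its 2 rows alone gave 0.71. Astl, the protease that hardens the zona after fertilisation, was at 17.3, 2.75 and 4.29 FPKM (log2 ratio -1.79). Izumo1r, the egg receptor of the sperm protein Izumo1, was at 65.7, 32.6 and 33.4 FPKM (log2 ratio -0.96), just inside the rule, with both exposed libraries at nearly the same level.

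Transcription factors of oocytes and germ cells numbered 12 kept members, with 0 higher (against 10.1% of all genes) and 3 lower (25%, against 5.41%). The 3 lower genes were Sall4, given above, Sebox, an oocyte homeobox gene needed by the early embryo, at 17.4, 2.42 and 0.589 FPKM (log2 ratio -3.53), and Figla, an activator of zona genes, at 95.8, 73.4 and 41.8 FPKM (log2 ratio -1.18). In Figla and Sebox the high dose value was the lowest and the low dose value intermediate. Others of the list lay in the opposite direction within the rule, among them Nobox, a homeobox factor of follicle formation, at 57.1, 67.4 and 112 FPKM (log2 ratio 0.96), Lhx8 at 20.9, 46.5 and 40.6 FPKM (log2 ratio 0.93) and Foxo3, which holds follicles dormant, at 35.4, 61.4 and 67.9 FPKM (log2 ratio 0.92).

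Maternal-effect genes, whose products the embryo needs from the egg, showed 2 higher and 1 lower of 30 kept members, and a median log2 ratio of -0.11. Uhrf1, which brings the maintenance methyltransferase to DNA, was at 54.6, 126 and 5.72 FPKM (log2 ratio -3.05), highest at the low dose. Tcl1, a coactivator of the kinase AKT, was at 202, 95.3 and 609 FPKM (log2 ratio 1.59), lowest at the low dose. Neither gene was ordered by dose. Subunits of the subcortical maternal complex stayed within the rule, with Padi6 at 383, 577 and 427 FPKM (log2 ratio 0.16), Tle6 at 90.9, 124 and 105 FPKM (log2 ratio 0.20) and Nlrp5 at 62.9, 79.2 and 76.4 FPKM (log2 ratio 0.28). The list of multicopy Obox, Oog, Nlrp4, Nlrp9 and Oas1 families also held Tcl1, which was its only higher member of 31 kept. The 1 lower member was Obox3 at 103, 16.6 and 16.6 FPKM (log2 ratio -2.56), with 1 of its 3 rows absent from the high dose table. In this list 21 of 31 lay below the median of all genes.

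Genes of the meiotic control system were examined next. Of 34 kept cyclins, cyclin-dependent kinases and direct regulators, 2 were higher and 3 lower, and 0 and 1 of the 23 with 1 row. Ccnk, the cyclin that partners the transcription kinases Cdk12 and Cdk13, was at 75.6, 265 and 2.31 FPKM (log2 ratio -4.53), with its larger row at 0 at the high dose. Its other row was at 2.59, 3.51 and 2.31 FPKM. Cks1b, the paralog of Cks2, was at 425, 96.5 and 146 FPKM (log2 ratio -1.53) and the cyclin Y relative Ccnyl1 at 9.44, 1.62 and 0.647 FPKM (log2 ratio -2.66). Ccnc, the cyclin of the Mediator kinase, was at 28.7, 76.2 and 67.0 FPKM (log2 ratio 1.19) and Ccno at 20.4, 91.3 and 65.8 FPKM (log2 ratio 1.64). The kinase that drives meiotic resumption was within the rule, with Cdk1 at 21.5, 17.3 and 16.3 FPKM (log2 ratio -0.38) and its partner Ccnb1, cyclin B1, at 182, 119.9 and 142 FPKM (log2 ratio -0.36). So was Wee2, the oocyte kinase that inhibits Cdk1, at 16.1, 9.95 and 20.6 FPKM (log2 ratio 0.33). Of the 25 kept genes of the anaphase-promoting complex and spindle checkpoint none passed the rule, and their log2 ratios ran from -0.76 to 0.53.

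Chromosome structure genes held few called members. Of 31 kept centromere and kinetochore genes 0 were higher and 1 lower, Dsn1 of the Mis12 complex at 53.7, 20.9 and 19.3 FPKM (log2 ratio -1.43). Of 26 cohesin, condensin and meiotic axis genes 2 were higher, namely Rad21l, a meiotic cohesin subunit, at 2.48, 13.2 and 11.7 FPKM (log2 ratio 1.87) and Hormad1, an axis protein, at 25.5, 33.8 and 56.6 FPKM (log2 ratio 1.12). The lower one was Pds5a, a cohesin regulator, at 8.45, 3.55 and 2.22 FPKM (log2 ratio -1.55). All 3 of these genes had several rows.

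Of the cytoskeleton lists, those of actin and motor genes held a larger share of called genes than all kept genes. The tubulin list was near the share of all genes. Actin and spindle migration genes, which move the meiotic spindle to the cortex, showed 7 higher (18.4%, against 10.1% of all genes) and 1 lower of 38 kept members. Their median log2 ratio was 0.03, that of all genes. Myo10, a myosin of filopodia, was at 5.39, 37.8 and 44.6 FPKM (log2 ratio 2.83), with its largest row at 0 in control, and the small GTPase Rhoa at 0.923, 8.65 and 10.1 FPKM (log2 ratio 2.53). Rock2, a kinase that promotes actomyosin contraction, was at 2.44, 7.71 and 8.996 FPKM (log2 ratio 1.54), and the WAVE complex members Nckap1 and Abi1 at 35.7, 204 and 90.7 FPKM (log2 ratio 1.32) and 7.99, 31.2 and 24.5 FPKM (log2 ratio 1.501). In each of these 5 genes both exposed libraries lay above control. Actb, beta actin and a common reference gene, was at 48.3, 128 and 106 FPKM (log2 ratio 1.12) and Actg1, gamma actin, at 7.07, 27.3 and 16.2 FPKM (log2 ratio 1.09). The lower member was Cfl1, cofilin, which severs actin filaments, at 76.6, 71.8 and 18.6 FPKM (log2 ratio -1.99), low at the high dose alone. Of the 23 members with 1 row 3 were higher and 1 lower, and the larger row of Abi1 alone gave 0.89.

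Motor proteins had 4 higher (12.5%) and 4 lower (12.5%) of 32 kept kinesin, dynein and dynactin genes, and 1 and 3 of the 22 with 1 row. Dynll1, a dynein light chain, was at 132, 72.2 and 16.7 FPKM (log2 ratio -2.90) and Ndel1, a dynein regulator, at 9.90, 14.8 and 0.679 FPKM (log2 ratio -2.70). Nde1, the paralog of Ndel1, differed the opposite way at 1.41, 1.91 and 11.1 FPKM (log2 ratio 2.33), but its larger row was absent from the control table, and with rows listed in both tables only its log2 ratio was 0.67. The dynactin subunits also lay on opposite sides, Dctn4 at 20.2, 25.1 and 65.7 FPKM (log2 ratio 1.66) and Dctn6 at 15.8, 7.07 and 7.09 FPKM (log2 ratio -1.05). Kif14, a kinesin of cytokinesis, was at 3.44, 5.93 and 9.93 FPKM (log2 ratio 1.2996) and the chromokinesin Kif4 at 49.6, 21.6 and 15.8 FPKM (log2 ratio -1.59). The larger row of Kif4 was at 36.1, 4.00 and 0.952 FPKM, and its other row at 13.5, 17.6 and 14.8 FPKM. Among 46 kept tubulin and microtubule-organising genes 4 were higher (8.70%) and 3 lower (6.52%), against 10.1% and 5.41% of all genes. Besides Tuba1c the lower members were Tubb4b, a beta tubulin, at 16.6, 29.6 and 6.10 FPKM (log2 ratio -1.31) and Haus4 of the augmin complex at 25.7, 18.5 and 11.8 FPKM (log2 ratio -1.06). The 4 higher members all had several rows, for instance Map4, a microtubule-binding protein, at 2.39, 11.1 and 8.16 FPKM (log2 ratio 1.44).

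The 3 lists of mRNA turnover, mRNA storage and RNA helicase genes had 0 lower members each, where 5.41% of all genes were lower. Members lay on both sides of the median of all genes, with 25 of 52, 14 of 33 and 10 of 22 below it. Of 52 kept deadenylation, decapping and decay genes 6 were higher (11.54%), near the 10.1% of all genes, and 4 of the 41 with 1 row. Rc3h1, the RNA-binding protein roquin, was at 1.42, 67.9 and 68.3 FPKM (log2 ratio 4.84), Zcchc11, a terminal uridylyl transferase, at 5.66, 43.3 and 28.2 FPKM (log2 ratio 2.13) and Tob1, which recruits deadenylases, at 2.01, 11.3 and 11.2 FPKM (log2 ratio 2.01). Cnot6l, the deadenylase of eggs, was at 9.48, 42.3 and 25.6 FPKM (log2 ratio 1.34), with the low dose above the high dose. The nonsense-mediated decay factor Upf1 was at 24.3, 52.5 and 52.9 FPKM (log2 ratio 1.09). In these 5 genes both exposed libraries were above control.

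Of 33 kept mRNA storage, translational control and m6A genes 4 were higher (12.1%, against 10.1% of all genes). The class median was 0.24, and all 4 had several rows. Cpsf4, a subunit of the polyadenylation complex, was at 3.88, 5.62 and 87.9 FPKM (log2 ratio 4.19). Its larger row was at 0 in control and carried the high dose value, whereas the other row was at 3.88, 5.52 and 2.37 FPKM. Igf2bp1, an mRNA-binding protein, was at 0.441, 65.9 and 25.9 FPKM (log2 ratio 4.22), Larp1, which binds mRNAs of the translation machinery, at 4.32, 21.7 and 24.6 FPKM (log2 ratio 2.26) and Caprin1, a stress granule protein, at 36.7, 184 and 133 FPKM (log2 ratio 1.83). Of 22 DEAD- and DEAH-box helicases 4 were higher (18.2%, against 10.1% of all genes), 2 of them among the 16 with 1 row. These 2 were Ddx19a, which acts in mRNA export, at 3.50, 17.6 and 15.01 FPKM (log2 ratio 1.83) and Ddx5 at 8.87, 26.02 and 24.3 FPKM (log2 ratio 1.36). Lin28b, a blocker of let-7 maturation, was the only higher member of 15 small RNA genes at 2.84, 35.6 and 37.9 FPKM (log2 ratio 3.34), summed over 6 rows, the largest of which was at 0 in control.

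Splicing factors, with 4 higher and 1 lower of 76, stayed below the background in both directions. Hnrnpa0, an RNA-binding protein, had no row in the control table, was listed at 0 at the low dose and stood at 23.1 FPKM at the high dose, and no ratio is given. Few translation genes were called. Cytosolic ribosomal proteins had 2 higher and 1 lower of 79 (median -0.03), namely Rpl26 at 37.95, 40.4 and 126 FPKM (log2 ratio 1.70), Rpl36al at 5.39, 34.1 and 18.1 FPKM (log2 ratio 1.58) and Rpl30 at 42.3, 26.3 and 18.2 FPKM (log2 ratio -1.17). Among 50 initiation and elongation factors 3 were higher and 1 lower. Eif2b3, a subunit of the exchange factor that the integrated stress response inhibits, was at 21.6, 165 and 113 FPKM (log2 ratio 2.34), and Eif5a, an elongation factor, at 97.3, 19.8 and 22.2 FPKM (log2 ratio -2.08).

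The general transcription machinery was the largest class with more lower than higher members. Of 89 kept RNA polymerase, Mediator and general factor genes 4 were higher (4.49%) and 9 lower (10.1%, against 5.41% of all genes), and 60 lay below the median of all genes. The class median was -0.17, against 0.02 for genes of like length, and 8 of the 9 lower members had 1 row. Mediator, which links activators to RNA polymerase II, had 3 lower subunits, Med21 at 60.8, 44.0 and 17.3 FPKM (log2 ratio -1.75), Med30 at 225, 204 and 101 FPKM (log2 ratio -1.15) and Med19 at 19.9, 13.004 and 9.32 FPKM (log2 ratio -1.02). In each the high dose was lowest and the low dose lay between. Polymerase subunits were Polr2c at 66.5, 48.6 and 24.6 FPKM (log2 ratio -1.40) and Polr2e, shared by all 3 nuclear polymerases, at 42.8, 13.1 and 17.0 FPKM (log2 ratio -1.28). Supt16, a subunit of the histone chaperone FACT, was at 26.04, 45.6 and 8.83 FPKM (log2 ratio -1.46), Gtf3a, the factor for 5S ribosomal RNA genes, at 15.2, 9.42 and 6.38 FPKM (log2 ratio -1.13) and the TFIID subunit Taf12 at 33.9, 26.005 and 15.8 FPKM (log2 ratio -1.05). On the higher side Polr2l, another subunit shared by the polymerases, was at 55.3, 452 and 388 FPKM (log2 ratio 2.79), high in both exposed libraries, and Med26, a Mediator subunit tied to elongation, at 0.0550, 0.0637 and 11.4 FPKM (log2 ratio 3.55), high at the high dose alone.

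**Figure D4:**
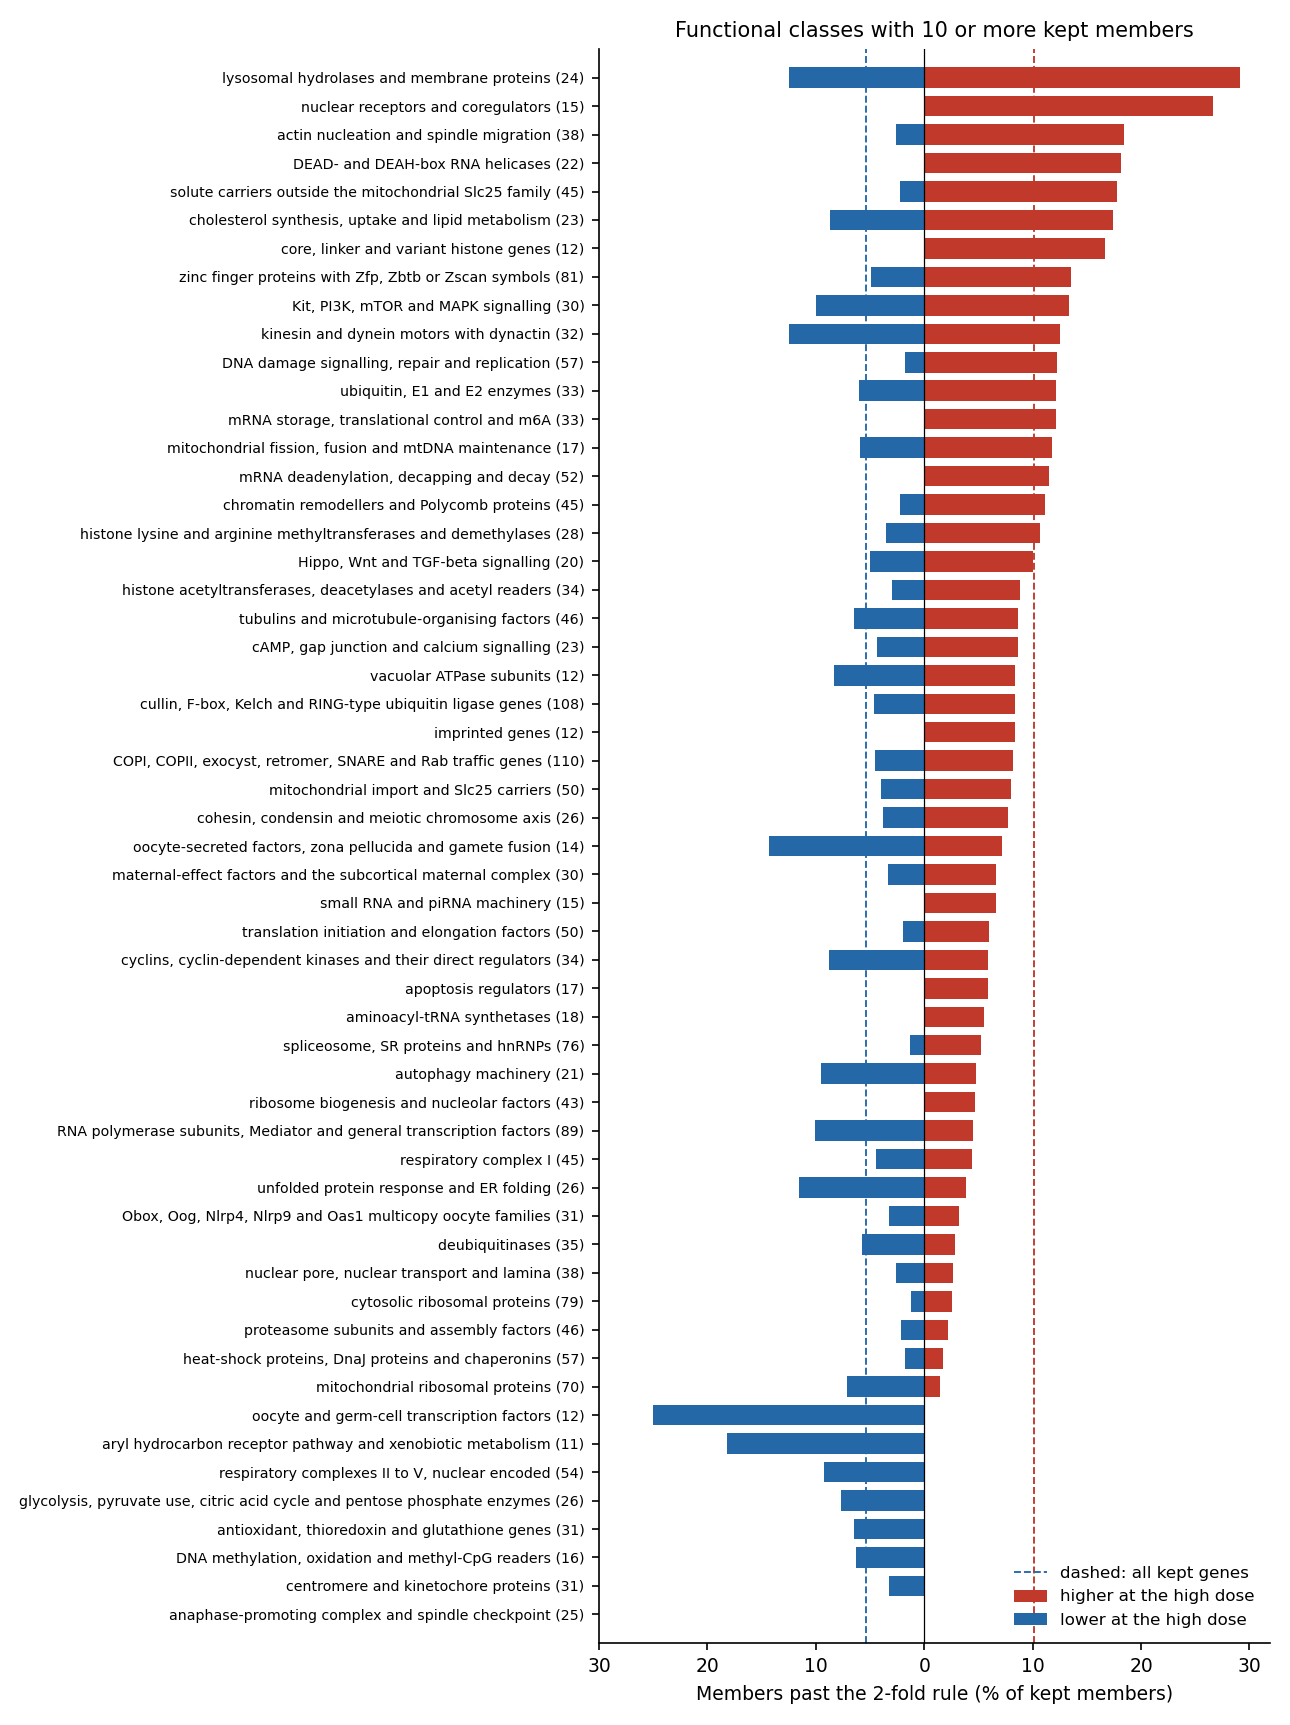
Share of kept members past the 2-fold rule (horizontal axis, percent; lower to the left in blue, higher to the right in red) for each class with 10 or more kept members, whose number is in brackets. Dashed lines mark all kept genes, 5.41% lower and 10.1% higher. Lysosomal and nuclear receptor genes stand at the top on the higher side. Several lists have lower members and no higher ones, among them respiratory complexes II to V, antioxidant genes, oocyte transcription factors and the aryl hydrocarbon receptor list.

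Chromatin genes followed the background with several large single ratios. Histone lysine and arginine methyltransferases and demethylases had 3 higher and 1 lower of 28, and none of the 3 higher members had 1 row. Setd2, an H3K36 methyltransferase, was at 6.50, 12.3 and 34.2 FPKM (log2 ratio 2.23) and the demethylase Kdm4c at 1.18, 1.91 and 9.83 FPKM (log2 ratio 2.31). Nsd1, another H3K36 methyltransferase, was at 70.6, 322 and 211 FPKM (log2 ratio 1.57). The largest of the 5 rows of Nsd1 alone gave 0.87. Suv39h2, an H3K9 methyltransferase, was at 18.5, 23.5 and 7.61 FPKM (log2 ratio -1.18), lowest at the high dose. Acetylation genes had 3 higher and 1 lower of 34, and 1 and 1 of the 21 with 1 row, with the corepressor genes Gatad2a at 1.82, 15.5 and 15.9 FPKM (log2 ratio 2.58) and Rere at 3.18, 126 and 29.9 FPKM (log2 ratio 2.89), and with Naa11, an amino-terminal acetyltransferase, at 10.9, 0.650 and 0.439 FPKM (log2 ratio -3.05).

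Remodelling and Polycomb genes had 5 higher and 1 lower of 45, and 1 and 1 of the 28 with 1 row. Phf1, an accessory protein of Polycomb complex 2, was at 2.13, 20.2 and 14.9 FPKM (log2 ratio 2.35), Cbx5, heterochromatin protein 1 alpha, at 11.7, 26.4 and 32.4 FPKM (log2 ratio 1.39) and Arid2, a remodeller subunit, at 8.73, 39.0 and 20.9 FPKM (log2 ratio 1.17). In these 3 genes both exposed libraries lay above control. Among 16 DNA methylation genes Uhrf1 alone passed the rule, with Dnmt1, its partner, at 62.9, 63.1 and 56.5 FPKM (log2 ratio -0.15) and the oxidase Tet3 at 10.1, 15.5 and 19.2 FPKM (log2 ratio 0.86). Of 12 histone genes 2 were higher, Hist1h2bc and H2afx, the variant phosphorylated at DNA breaks. H2afx had no row in the control table, was listed at 0 at the low dose and stood at 14.9 FPKM at the high dose. Another H2B gene, Hist1h2bg, was at 25.5, 21.6 and 12.3 FPKM (log2 ratio -0.99), in the opposite direction to Hist1h2bc. Zinc finger genes had 11 higher (13.6%) and 4 lower of 81, but 1 and 1 of the 40 with 1 row. Of 12 imprinted genes Inpp5f, a phosphoinositide phosphatase, was the only one past the rule at 7.58, 41.3 and 27.8 FPKM (log2 ratio 1.75).

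DNA damage, repair and replication genes had 7 higher (12.3%) and 1 lower (1.75%) of 57 kept members, with a median of 0.21 against 0.06 for genes of like length. Of the 38 with 1 row 4 were higher and 0 lower, and the 4 include H2afx, given above, which had no row in the control table. Pola1, the catalytic subunit of the primase polymerase, was at 5.43, 6.73 and 53.7 FPKM (log2 ratio 3.09), and Prkdc, the kinase that joins broken ends with Lig4, at 2.72, 2.34 and 26.9 FPKM (log2 ratio 2.91). Both were high at the high dose alone and had several rows, and the larger row of Pola1 was at 0 in control. The other row of Pola1 was at 5.43, 5.47 and 6.26 FPKM. Mcm5, of the replicative helicase, was at 3.93, 16.6 and 14.3 FPKM (log2 ratio 1.64), Rpa3, which coats single-stranded DNA, at 58.8, 136 and 140.1 FPKM (log2 ratio 1.24) and Lig4, the ligase of end joining, at 4.86, 10.3 and 11.1 FPKM (log2 ratio 1.05). These 3 genes had 1 row and were above control in both exposed libraries. Fancc of the crosslink repair pathway was at 7.57, 23.1 and 21.4 FPKM (log2 ratio 1.39), and Rad17, which loads the checkpoint clamp, at 30.9, 7.98 and 11.3 FPKM (log2 ratio -1.37).

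Protein turnover genes came in several lists. Of 46 proteasome genes 1 was higher and 1 lower, but 36 lay below the median of all genes, with a class median of -0.21 against -0.06 for genes of like length. Psme3, an activator of the nuclear proteasome, was at 6.53, 23.3 and 25.3 FPKM (log2 ratio 1.80) and Psmg4, an assembly chaperone, at 65.9, 24.9 and 21.9 FPKM (log2 ratio -1.54). Among 33 ubiquitin, E1 and E2 genes 4 were higher and 2 lower, and 1 and 1 of the 23 with 1 row. The 2 lower genes, Ube2n at 32.2, 6.97 and 11.496 FPKM (log2 ratio -1.41) and Ube2v2 at 10.1, 11.3 and 4.19 FPKM (log2 ratio -1.10), encode partners that build lysine-63 chains. Ube2g2, the E2 of endoplasmic reticulum protein degradation, was at 4.003, 18.5 and 15.6 FPKM (log2 ratio 1.73), and Uevld, an E2 variant, at 54.4, 1.24 and 125 FPKM (log2 ratio 1.19), with the low dose far below both others.

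Ubiquitin ligase genes had 9 higher and 5 lower of 108, and 2 and 4 of the 64 with 1 row. Rnf187 was at 0.467, 1.34 and 26.3 FPKM (log2 ratio 4.22), Rnf13, an endosomal ligase, at 1.87, 1.79 and 22.6 FPKM (log2 ratio 3.04) and Trim13, a ligase of the endoplasmic reticulum, at 16.6, 3.34 and 104 FPKM (log2 ratio 2.58), each high at the high dose alone. Siah2, a ligase of hypoxia signalling, was at 53.3, 70.3 and 16.2 FPKM (log2 ratio -1.66) and March5, of the outer mitochondrial membrane, at 162, 50.1 and 56.5 FPKM (log2 ratio -1.51). The deubiquitinases Otub1 and Otub2 were both lower, at 58.9, 42.5 and 14.6 FPKM (log2 ratio -1.94) and 11.1, 7.12 and 3.58 FPKM (log2 ratio -1.40), and Usp9x was at 10.7, 27.0 and 26.6 FPKM (log2 ratio 1.23), a total of 1 higher and 2 lower of 35. Chaperones had 1 higher and 1 lower of 57, with Hspa9, the mitochondrial Hsp70, at 12.2, 30.4 and 31.0 FPKM (log2 ratio 1.28).

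In the endoplasmic reticulum and unfolded protein response list 1 was higher and 3 lower of 26. Derl2, a channel component of protein degradation at the reticulum, was at 10.8, 97.8 and 192 FPKM (log2 ratio 4.03), ordered from control to high dose, while its paralog Derl3 was at 12.3, 2.28 and 3.45 FPKM (log2 ratio -1.58). Atf4, the transcription factor of the integrated stress response, was at 21.05, 31.5 and 5.64 FPKM (log2 ratio -1.73), low at the high dose alone, and Sdf2l1, a luminal chaperone partner, at 8.39, 1.87 and 2.28 FPKM (log2 ratio -1.52). The most used stress markers were within the rule, with Hspa5, the chaperone BiP, at 31.9, 41.7 and 45.3 FPKM (log2 ratio 0.49) and Ddit3, the factor CHOP, at 57.8, 10.6 and 39.3 FPKM (log2 ratio -0.54). Of 21 autophagy genes Atg14, of the initiating lipid kinase complex, was higher at 15.1, 44.6 and 39.2 FPKM (log2 ratio 1.32). Map1lc3a, an LC3 protein of the autophagosome membrane, at 24.3, 2.74 and 3.77 FPKM (log2 ratio -2.41) and Ambra1, an initiation factor, at 23.8, 19.7 and 9.55 FPKM (log2 ratio -1.23) were lower. The largest row of Ambra1 was at 17.7, 8.94 and 0.405 FPKM. Its other rows were above control at the high dose, at 3.75, 0.528 and 4.33 FPKM and at 2.40, 10.2 and 4.81 FPKM.

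Lysosomal genes had the highest share of called members among classes of 10 or more, while the class median was -0.08. Of 24 kept members 7 were higher (29.2%, against 10.1% of all genes) and 3 lower (12.5%, against 5.41%). The surface complex that reports amino acids to the kinase mTORC1 made up 6 of these 10 genes. Its Rag GTPases were Rraga, listed at 0, 0.664 and 25.4 FPKM, Rragc at 9.87, 49.3 and 43.4 FPKM (log2 ratio 2.03) and Rragd at 26.8, 69.1 and 69.5 FPKM (log2 ratio 1.34). All 3 lay above control at the high dose. The Ragulator scaffold that anchors them was divided, with Lamtor3 at 8.10, 17.3 and 21.6 FPKM (log2 ratio 1.31), Lamtor1 at 26.003, 6.77 and 4.41 FPKM (log2 ratio -2.32) and Lamtor4 at 63.8, 71.96 and 20.7 FPKM (log2 ratio -1.58). The remaining scaffold genes were within the rule, Lamtor2 at 114, 91.3 and 93.7 FPKM (log2 ratio -0.28) and Lamtor5 at 156, 112 and 259.9 FPKM (log2 ratio 0.73). Among hydrolases and membrane enzymes Gla, alpha-galactosidase A, was at 0.121, 3.17 and 29.6 FPKM (log2 ratio 4.77), Hgsnat, an acetyltransferase of heparan sulfate breakdown, at 0.615, 0.502 and 40.5 FPKM (log2 ratio 4.68) and Manba, beta-mannosidase, at 14.1, 189.8 and 34.4 FPKM (log2 ratio 1.23). The largest row of Gla and of Hgsnat was at 0 in control. Lamp1, the main membrane glycoprotein, was at 31.5, 34.2 and 4.77 FPKM (log2 ratio -2.49), low at the high dose alone. Of the 13 members with 1 row 2 were higher and 3 lower, and the 2 higher were Lamtor3 and Rraga, the latter at 0 in control.

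Membrane traffic genes had 9 higher and 5 lower of 110, close to the background in both directions, and 2 and 5 of the 79 with 1 row. Small GTPases of endosomes were among the lower ones, with Rab9, of the route from late endosome to Golgi, at 18.2, 1.56 and 1.55 FPKM (log2 ratio -2.91), Rab21 at 17.4, 2.37 and 2.48 FPKM (log2 ratio -2.40) and Arf6, of recycling at the plasma membrane, at 14.9, 3.26 and 2.96 FPKM (log2 ratio -2.01). In these 3 genes both exposed libraries were low and nearly equal. The plasma membrane SNARE genes Stx2 and Stx4a were at 19.97, 51.9 and 167 FPKM (log2 ratio 3.0) and 11.3, 42.4 and 51.3 FPKM (log2 ratio 2.09), and Sec23a, of the coat that leaves the reticulum, at 1.16, 2.72 and 8.99 FPKM (log2 ratio 2.21). The accessory proton pump protein Atp6ap2 was at 9.12, 13.8 and 2.13 FPKM (log2 ratio -1.69) and the pump subunit Atp6v0d1 at 6.02, 22.8 and 22.04 FPKM (log2 ratio 1.72), the 2 called genes of 12 vacuolar ATPase genes.

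Mitochondrial genes encoded in the nucleus formed several lists. Mitochondrial ribosomal proteins had 1 higher (1.43%) and 5 lower (7.14%) of 70, and 53 of 70 lay below the median of all genes, with a class median of -0.22 against -0.04 for genes of like length. Mrpl36 was at 23.8, 19.6 and 0.340 FPKM (log2 ratio -4.21) and Mrpl57 at 39.6, 35.5 and 4.06 FPKM (log2 ratio -3.002), with control and low dose alike and the high dose low. Mrpl46 was at 116, 78.1 and 34.1 FPKM (log2 ratio -1.73), Mrps30 at 9.82, 2.14 and 2.56 FPKM (log2 ratio -1.60) and Mrps25 at 82.8, 67.3 and 37.2 FPKM (log2 ratio -1.13). The higher member was Mrpl53 at 5.70, 18.98 and 21.7 FPKM (log2 ratio 1.76), and all 6 genes had 1 row.

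Respiratory complexes II to V had 0 higher and 5 lower of 54 (9.26%) and a median of -0.15, and 0 and 3 of the 46 with 1 row. Cox8a, a subunit of cytochrome c oxidase, was at 186, 44.5 and 18.8 FPKM (log2 ratio -3.24), Cox7a2l, which joins complexes into supercomplexes, at 179, 112 and 71.5 FPKM (log2 ratio -1.32) and Cox18, which inserts an oxidase subunit into the membrane, at 8.41, 6.30 and 3.42 FPKM (log2 ratio -1.09). Atpif1, the inhibitor of ATP synthase, was at 295, 308 and 74.7 FPKM (log2 ratio -1.97), low at the high dose alone, and the ATP synthase-related gene Atp5s at 30.05, 9.37 and 8.67 FPKM (log2 ratio -1.68), summed over 3 rows. Complex I had 2 higher and 2 lower of 45, all with 1 row. Its subunits Ndufa2 and Ndufa1 were at 468, 1243 and 1118 FPKM (log2 ratio 1.26) and 159, 516 and 439.8 FPKM (log2 ratio 1.46), high in both exposed libraries. Subunit Ndufb3 was at 257, 232 and 108 FPKM (log2 ratio -1.24) and the assembly factor Ndufaf4 at 156, 68.5 and 73.8 FPKM (log2 ratio -1.07). Of the 13 protein genes of the mitochondrial genome 5 had a row and 1 was kept, mt-Co1, an oxidase subunit, at 19.1, 7.99 and 7.61 FPKM (log2 ratio -1.23).

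Import and carrier genes had 4 higher and 2 lower of 50, and 1 and 1 of the 40 with 1 row, among them the translocase parts Timm22 at 6.62, 64.8 and 26.2 FPKM (log2 ratio 1.83) and Timm10 at 35.2, 26.8 and 109 FPKM (log2 ratio 1.598) and the prohibitin Phb2, an inner membrane scaffold, at 33.7, 27.3 and 12.4 FPKM (log2 ratio -1.38). In the fission, fusion and mitochondrial DNA list 2 were higher and 1 lower of 17. Opa1, which fuses inner membranes, was at 6.27, 6.82 and 18.96 FPKM (log2 ratio 1.46), Rhot1, which ties mitochondria to motors, at 14.1, 54.3 and 44.9 FPKM (log2 ratio 1.61) and Afg3l2, an inner membrane protease, at 10.9, 13.8 and 2.15 FPKM (log2 ratio -1.92). Enzymes of glycolysis, pyruvate use and the citric acid cycle had 0 higher and 2 lower of 26, namely Mdh2, mitochondrial malate dehydrogenase, at 36.8, 12.5 and 13.6 FPKM (log2 ratio -1.37) and Pdhx, of the pyruvate dehydrogenase complex, at 43.3, 21.4 and 18.9 FPKM (log2 ratio -1.15). In both the 2 exposed libraries were nearly equal.

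Antioxidant genes had 0 higher and 2 lower of 31, and 23 lay below the median of all genes (class median -0.21, against -0.04 for genes of like length). The lower genes were the glutaredoxins Glrx, which reduces glutathionylated proteins, at 521, 318 and 51.5 FPKM (log2 ratio -3.31) and Glrx5, of iron-sulfur cluster assembly in mitochondria, at 78.0, 24.4 and 13.2 FPKM (log2 ratio -2.47), both ordered from control to high dose. Glrx3, another glutaredoxin, was at 10.9, 10.9 and 9.35 FPKM (log2 ratio -0.21). Gpx4, the lipid peroxidase that guards against ferroptosis, was at 74.1, 57.7 and 37.6 FPKM (log2 ratio -0.96) and the ferritin chains Ftl1 and Fth1 were at 122, 54.5 and 61.4 FPKM (log2 ratio -0.98) and 91.7, 53.5 and 54.7 FPKM (log2 ratio -0.74), within the rule. The superoxide dismutase Sod1 was at 1231, 1554 and 1692 FPKM (log2 ratio 0.46), above control. Apoptosis regulators had 1 higher of 17, Triap1, and 14 lay below the median of all genes, with the oocyte survival factor Bcl2l10 at 2030.0, 1444 and 1479 FPKM (log2 ratio -0.46) and Birc5, survivin, at 173, 105 and 128 FPKM (log2 ratio -0.43).

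**Figure D5:**
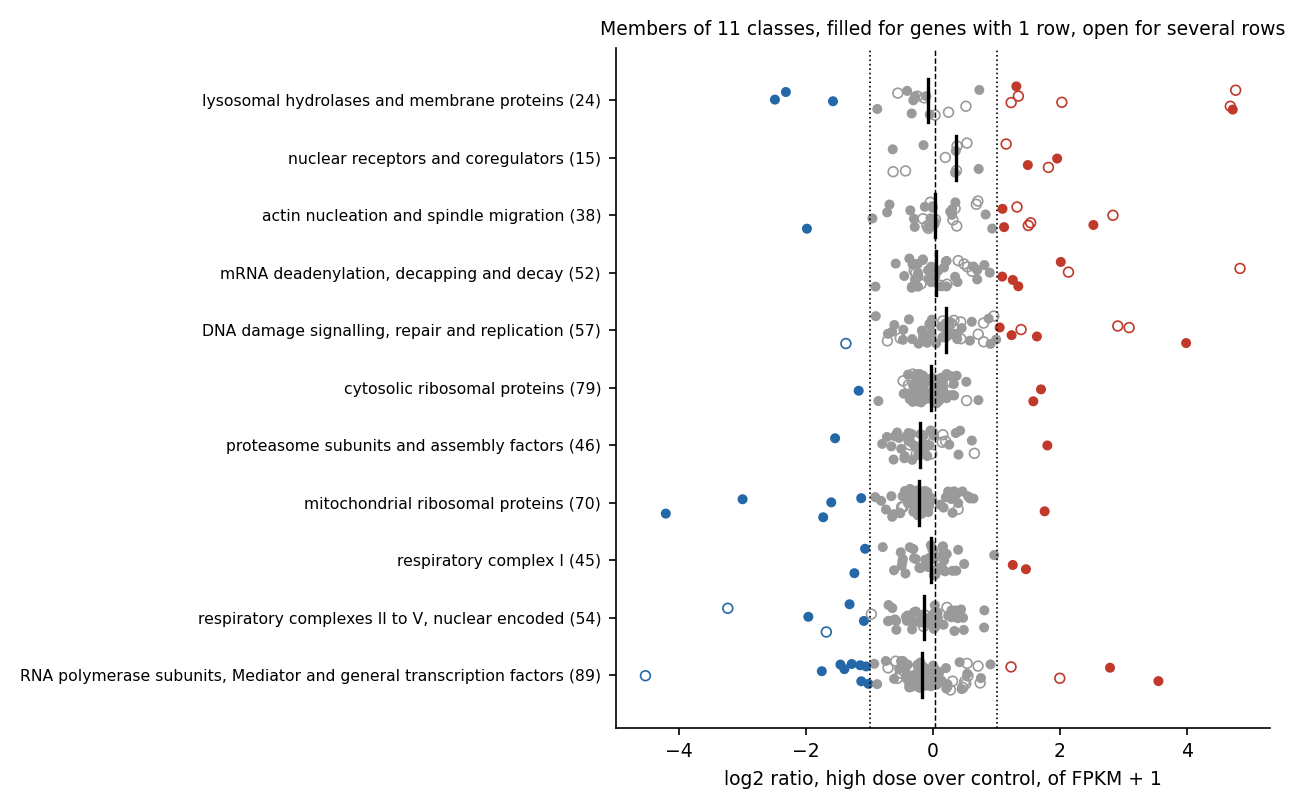
Log2 ratio of high dose over control, on FPKM + 1 (horizontal axis), of every kept member of 11 classes, 1 point per gene; filled points have 1 row in the tables and open points several. Red and blue points passed the 2-fold rule (dotted lines), the short black bar is the class median and the dashed line the median of all genes, 0.03. Lysosomal genes spread to both sides, whereas cytosolic ribosomal proteins stay between -1.17 and 1.70.

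Lipid and sterol genes had 4 higher (17.4%, against 10.1% of all genes) and 2 lower of 23, and 1 and 1 of the 14 with 1 row. The synthesis steps were divided. Hmgcs1, the synthase that commits acetyl units to sterols, was at 77.2, 123.3 and 23.5 FPKM (log2 ratio -1.68) and Nsdhl, a later step, at 9.65, 6.86 and 2.71 FPKM (log2 ratio -1.52). Sc5d, another late step, was at 4.74, 9.94 and 12.2 FPKM (log2 ratio 1.20) and Acaca, which starts fatty acid synthesis, at 21.8, 72.6 and 59.4 FPKM (log2 ratio 1.41). Srebf2, the transcription factor of the pathway, was at 49.7, 125 and 101 FPKM (log2 ratio 1.01) and its retention partner Insig1 at 60.2, 73.0 and 158 FPKM (log2 ratio 1.38). In Hmgcs1 the low dose was highest and the high dose lowest, and in Insig1 the high dose alone stood out.

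Solute carriers outside mitochondria had 8 higher (17.8%, against 10.1% of all genes) and 1 lower of 45, with a median of 0.28. Of the 13 with 1 row 1 was higher and 0 lower. Slc4a3, an anion exchanger, was the higher gene with 1 row, at 2.36, 8.87 and 10.3 FPKM (log2 ratio 1.74). Slc7a6, an amino acid transporter, was at 9.37, 51.4 and 47.3 FPKM (log2 ratio 2.22) and Slc39a9, a zinc transporter, at 1.16, 2.98 and 12.2 FPKM (log2 ratio 2.62), with its largest row absent from the control table. The lower gene was Slc6a6, the taurine transporter, at 52.0, 15.5 and 5.35 FPKM (log2 ratio -3.06).

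In the Kit, PI3K, mTOR and MAPK signalling list 4 were higher (13.3%) and 3 lower (10%) of 30, and 2 and 1 of the 18 with 1 row, with a median of 0.30 against 0.15 for genes of like length. The kinase subunits Pik3cd and Pik3cb were at 2.18, 23.5 and 23.1 FPKM (log2 ratio 2.92) and 88.3, 151 and 289 FPKM (log2 ratio 1.70), the stress kinase Mapk8 at 3.20, 6.68 and 12.3 FPKM (log2 ratio 1.66) and the growth factor receptor Fgfr2, summed over 15 rows, at 37.98, 129 and 131 FPKM (log2 ratio 1.76). Lower were Sos2, an activator of Ras, at 10.8, 0.654 and 1.12 FPKM (log2 ratio -2.47), the MAPK phosphatase Dusp1 at 10.1, 10.8 and 1.81 FPKM (log2 ratio -1.97) and the receptor Igf1r at 17.6, 34.1 and 7.92 FPKM (log2 ratio -1.06). Of 23 cAMP, gap junction and calcium genes Gja4, connexin 37 of the channels between oocyte and granulosa cells, was at 12.2, 133 and 134 FPKM (log2 ratio 3.35), and Atp2a2, the calcium pump of the reticulum, at 14.6, 34.7 and 34.5 FPKM (log2 ratio 1.19). For both the 2 exposed libraries were nearly equal and above control. Atp2b1, the pump of the plasma membrane, was lower at 21.8, 11.04 and 8.38 FPKM (log2 ratio -1.28).

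Among 20 Hippo, Wnt and TGF-beta genes Smad4, the shared partner of receptor Smads, was at 1.57, 3.92 and 12.3 FPKM (log2 ratio 2.37) and the Notch ligand Jag1 at 212, 322 and 514 FPKM (log2 ratio 1.27), both ordered from control to high dose. Tead1, the DNA-binding partner of Yap, was at 42.0, 0.387 and 1.41 FPKM (log2 ratio -4.16), low in both exposed libraries, and its largest row was listed at 0 at the high dose. In the nuclear envelope list Lbr, the lamin B receptor and a sterol reductase, was at 87.0, 139 and 18.7 FPKM (log2 ratio -2.16) and the pore protein Nup98 at 48.5, 97.1 and 104 FPKM (log2 ratio 1.08), the only 2 of 38 past the rule. Of 12 common reference genes 2 were higher, Actb and the cyclophilin Ppia, at 40.8, 109 and 104 FPKM (log2 ratio 1.33). Others were within the rule, with Hprt, a purine salvage enzyme, at 34.7, 29.6 and 40.1 FPKM (log2 ratio 0.20) and Sdha, of complex II, at 10.4, 10.2 and 11.8 FPKM (log2 ratio 0.17).

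Over the whole set of classes, 7.70% of the 1999 genes in at least 1 class were higher and 4.75% lower, beside 11.3% and 5.73% of the 4100 genes in no class, a description with no test. The control library was shared by the low and high dose values printed side by side, so a gene with an unusual value in control would differ from both.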

How the data were processed

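RNA of mouse oocytes was sequenced in 3 libraries, grouped by the exposure label, with 1 library per group. HISAT2, StringTie and the build mm10 are named in the submitters' processing notes; versions, annotation, trimming and strand setting were not given in the sources used here, so overlapping genes on opposite strands may share reads. Each library had a table of identifiers, gene names and FPKM values that the authors deposited.

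Here FPKM was summed per gene name, rows absent from a table were taken as 0, and rows without a name and 61 identifiers with conflicting names (0.0978%, 0.134% and 0.117% of FPKM) were left out. Genes whose mean over control and high dose reached 5 FPKM were compared as log2((high + 1)/(control + 1)), values as deposited, which understates the change of low genes. An exact 0 may be a failed estimate, so genes whose summed FPKM was 0 in control or at the high dose are listed without a ratio. Genes with only some of their rows at 0 keep a ratio, to which the same doubt applies. No count test was run, and 1 library per group allows none. Depth was estimated from the worth of 1 read in low rows (234 of 2662 in control, 153 of 1996 at the low dose and 185 of 2338 at the high dose lay in the window taken as 1 read) and covers counting error only.

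The members, the 64 gene lists (6 of them markers of other cells) and the naming rule were chosen with earlier results of these data known. Named genes were the 15 largest ratios in each direction among curated genes with 1 row above 0 in both libraries, up to 4 called members per class and direction, the 2 most abundant members of a class and the 20 most abundant genes; other members were named to complete a pathway after their values were seen. Some named genes are not reported here. Genes of like length are those in the same of 20 length bins. Lengths, positions and biotypes came from GENCODE release M21 (GRCm38), which matched 96.8% of kept genes, and promoters from RefSeq (GRCm38.p6). Alternatives were other pseudocounts, filters, thresholds, scalings and ways to join rows. Python 3.11.15, pandas 2.3.3 and numpy 2.4.6 were used.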

Additional observations from a re-analysis of the deposited data

Results flagged for a closer look

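Rows without a gene name were left out of every comparison, and they held a larger share of the FPKM at the high dose (19.3%) than in control (15.4%). In the low dose library the share was 21.9%. Of the 2157 unnamed rows whose mean over control and high dose reached 5 FPKM, 506 were at least 2-fold higher at the high dose and 129 lower. Among named genes 617 of 6099 were higher and 330 lower, and among those with 1 row 228 and 216 of 3861. The unnamed counts are of single rows and not of sums per gene. Which transcripts these rows hold was not tested.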

How the results depend on the processing

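No paired analysis was possible because each group had 1 library, and no replicate could be left out. The counts of 617 higher and 330 lower genes became 1330 and 735 with no filter, 1151 and 633 with the mean at 1 FPKM or more, 1139 and 763 at 1.5-fold and 201 and 120 at 4-fold. They became 228 and 216 with genes of 1 row only and, chosen after seeing the data, 331 and 159 with at least 5 FPKM in both libraries. With the mean at 10 FPKM or more 414 and 204 remained. Genes of 1 row also moved the share of higher genes among those past the rule from 65.2% to 51.4%. Counts stayed within 1.5 times under pseudocounts of 0.1 and 5 FPKM, both scalings, the largest row per gene, rows in both tables only, ratios adjusted for length and, chosen after seeing the data, conflicting identifiers kept (443 to 684 higher, 223 to 387 lower). Trimmed-mean scaling brought the median of all genes from 0.03 to -0.00. Of 56 class medians 15 moved by over 0.1 with genes of 1 row only, 17 with no filter and 11 with ratios adjusted for length. Of 246 genes named in the text, 29 crossed the threshold in one direction or the other with a pseudocount of 5 FPKM, 19 with ratios adjusted for length and 3 each with the largest row per gene and trimmed-mean scaling; none of those past the rule changed sign. Values of low genes are limited by depth and carry counting error that is not shown.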

Other observations

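Some abundant genes past the rule belonged to no class and were chosen after their values were seen, among genes whose mean reached 200 FPKM. Oser1, an oxidative stress-responsive gene, was at 550.2, 48.9 and 53.4 FPKM (log2 ratio -3.34), and Pecr, a peroxisomal reductase of fatty acid elongation, at 279, 122 and 128 FPKM (log2 ratio -1.12). Both were low in the 2 exposed libraries. Paip1, which binds poly(A)-binding protein and promotes translation, was at 193, 39.3 and 399 FPKM (log2 ratio 1.05), lowest at the low dose and highest at the high dose. Foxn3, a forkhead factor, was at 121, 647 and 316 FPKM (log2 ratio 1.37) over 5 rows and Plxdc1, a plexin domain protein, at 133, 338 and 278 FPKM (log2 ratio 1.05). In both the low dose was the highest of the 3 values.

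By reference biotype, 492 of 5102 protein-coding genes were higher and 266 lower, while 23 and 9 of 234 lincRNA genes and 27 and 22 of 206 processed pseudogenes were. Of 51 genes annotated as processed transcripts 12 were higher and 0 lower. Across chromosomes the share of higher genes ran from 6.30% of 270 on chromosome 17 to 13.4% of 419 on chromosome 4, and that of lower genes from 2.98% of 168 on chromosome 18 to 7.43% of 202 on chromosome 19, leaving out the 4 mitochondrial genes. Extracellular Gpx3, a peroxidase below the filter, was at 3.80, 6.67 and 0.222 FPKM, and metallothionein Mt2 at 5.47, 2.78 and 1.73 FPKM. Both were picked from a longer list of genes below the filter, which did not share a direction. In that list Txnrd1 was at 4.18, 2.47 and 3.65 FPKM, Nfe2l2 at 3.39, 7.75 and 3.41 FPKM and Ung at 0.318, 2.39 and 5.56 FPKM.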
